A study of Mus musculus with 2 samples.

Results

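The genes described here build the protein entry gates of the mitochondrion and the machinery that joins, divides and folds its membranes. They are the protein-coding genes whose symbol begins with Timm or Tomm and a number (15 Timm and 10 Tomm genes) and 12 genes of fusion, fission and cristae chosen by name, 37 of the 55536 genes analysed. The RNA was total RNA from the gastrocnemius, a large calf muscle, of male B6CASTF1/J mice, a cross between C57BL/6J and CAST/EiJ, and the labels give an age of 18 to 20 months. There was 1 group of 2 libraries, called biological replicate 2 and biological replicate 1, each made from 300 ng of total RNA to which ERCC spike-ins (a set of synthetic transcripts) had been added. No treatment, genotype or age was compared. The libraries held 44919441 expected counts in replicate 2 and 40795740 in replicate 1. The labels give the males different numbers but both libraries the same donor record, and it is not known whether they come from separate animals.

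Nearly all mitochondrial proteins are made in the cytosol and enter through the TOM complex of the outer membrane. The TIM23 complex then takes proteins with a presequence into the matrix or inner membrane, and small TIM chaperones carry membrane proteins to the TIM22 complex. Mitofusins and OPA1 fuse the outer and inner membranes, the GTPase DRP1 divides mitochondria after adaptors recruit it, and the MICOS complex shapes the junctions of the cristae, the folds of the inner membrane. In muscle many mitochondria lie between the myofibrils.

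Of the 37 genes, 35 were detected at 1 TPM or more in both libraries, and 32 reached 10 TPM in both. TPM is the abundance per transcript length scaled to a fixed total in each library, so levels of different genes can be set in order. Their summed level was 2377 TPM in replicate 2 and 2113 TPM in replicate 1, a mean of 2245 ± 187 TPM (SD, n = 2). This was 0.543% of the TPM of nuclear protein-coding genes in replicate 2 and 0.461% in replicate 1. The 10 most abundant genes held 74.8% of the sum, and 23 genes lay between 10 and 60 TPM. Of the 36 pairs of neighbours in the order of mean level, 19 had overlapping values in the 2 libraries, so their order was not settled.

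**Figure D1:**
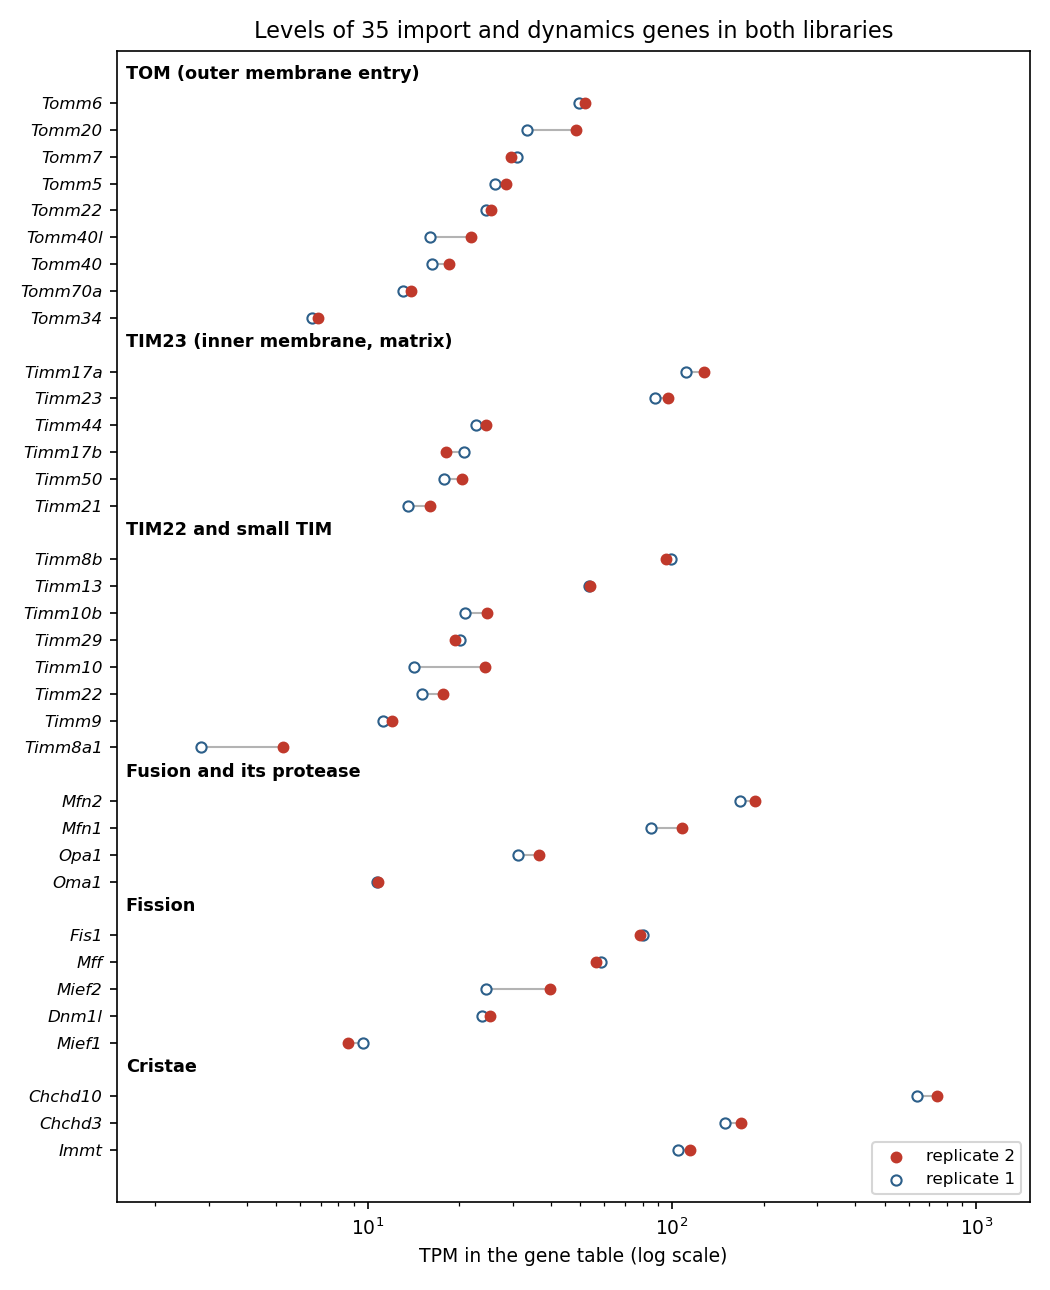
TPM of the 35 detected genes on a log axis, grouped by role, with replicate 2 as filled and replicate 1 as open circles. Chchd10 stands far to the right at 743.2 TPM in replicate 2 and 639.98 TPM in replicate 1, Timm8a1 lies lowest at 5.26 TPM in replicate 2 and 2.82 TPM in replicate 1, and Timm8a2 and Tomm20l, at or near 0, are not drawn.

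The 3 cristae genes ranked 1, 3 and 5 in mean level and together held 43.2% of the summed TPM in replicate 2 and 42.3% in replicate 1. Chchd10 (chr10:75933130-75937747, mm10), which encodes a small protein of the intermembrane space, had 743.2 TPM in replicate 2 and 639.98 TPM in replicate 1. It alone made up 31.3% of the sum in replicate 2 and 30.3% in replicate 1, and its level was above that of 99.4% of the protein-coding genes detected. Chchd3 (chr6:32790976-33060260), a MICOS subunit, had 169.11 TPM in replicate 2 and 149.11 TPM in replicate 1. Immt (chr6:71831331-71877388), which encodes the MICOS core protein mitofilin, had 114.5 TPM in replicate 2 and 104.88 TPM in replicate 1. All 3 values were higher in replicate 2, and Immt and Timm17a, its neighbour above, overlapped.

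Among the fusion genes both mitofusins stood well above Opa1. Mfn2 (chr4:147873599-147904704) had 186.91 TPM in replicate 2 and 167.33 TPM in replicate 1, the second level of all 37 genes, and its range overlapped that of Chchd3. Mfn1 (chr3:32529465-32579239) had 108.28 TPM in replicate 2 and 85.6 TPM in replicate 1. Mfn2 thus made up 63.3% of the mitofusin TPM in replicate 2 and 66.2% in replicate 1. Opa1, the inner-membrane fusion GTPase, had 36.45 TPM in replicate 2 and 31.21 TPM in replicate 1. Oma1, the protease that cleaves OPA1 under stress, was near the lower end at 10.81 TPM in replicate 2 and 10.76 TPM in replicate 1.

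The fission genes ranged from Fis1 to Mief1, and the adaptors Fis1 and Mff were more abundant than the GTPase they are known to act with. Fis1 had 78.25 TPM in replicate 2 and 80.25 TPM in replicate 1, and Mff had 56.4 TPM in replicate 2 and 58.65 TPM in replicate 1. Dnm1l, which encodes DRP1, had 25.26 TPM in replicate 2 and 23.82 TPM in replicate 1. The levels of Fis1, Mff and Dnm1l did not overlap in the 2 libraries. Of the paired adaptors that hold DRP1 at the outer membrane, Mief2 had 39.79 TPM in replicate 2 and 24.55 TPM in replicate 1, while Mief1 had 8.6 TPM in replicate 2 and 9.65 TPM in replicate 1. Mief2 therefore held 82.2% of the pair in replicate 2 and 71.8% in replicate 1.

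In the TIM23 complex 2 genes stood apart from the other 4. Timm17a (chr1:135295213-135313778), a channel subunit, had 127.42 TPM in replicate 2 and 111.39 TPM in replicate 1, and Timm23, the other core subunit, had 96.68 TPM in replicate 2 and 88.13 TPM in replicate 1. Timm17b, the X-linked paralog of Timm17a, had 18.01 TPM in replicate 2 and 20.74 TPM in replicate 1, so Timm17a held 87.6% of the pair in replicate 2 and 84.3% in replicate 1. The presequence receptor Timm50, the motor anchor Timm44 and Timm21 had mean levels from 14.8 to 23.6 TPM. The whole class summed to 303.0 TPM in replicate 2 and 274.4 TPM in replicate 1.

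Among TIM22 and the small TIM chaperones, Timm8b and Timm13 had the highest levels, above the channel gene Timm22. The chaperone Timm9 lay below Timm22 in both libraries. Timm8b had 95.45 TPM in replicate 2 and 99.18 TPM in replicate 1, and Timm13 had 53.69 TPM in replicate 2 and 53.34 TPM in replicate 1. Timm8a1, whose human counterpart is mutated in deafness-dystonia syndrome, had 5.26 TPM in replicate 2 and 2.82 TPM in replicate 1, and Timm8a2 had a single count in replicate 2 and no count in replicate 1. Timm8b held 94.7% of the TPM of these 3 paralogs in replicate 2 and 97.2% in replicate 1. Timm10 had 24.37 TPM in replicate 2 and 14.19 TPM in replicate 1, and Timm10b had 24.58 TPM in replicate 2 and 20.83 TPM in replicate 1. The other 3, which are the channel Timm22, its partner Timm29 and the chaperone Timm9, had mean levels from 11.6 to 19.7 TPM.

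In the gene table no TOM gene exceeded 60 TPM. Tomm6, a small subunit, led the class at 51.71 TPM in replicate 2 and 49.58 TPM in replicate 1. Tomm20, the presequence receptor, followed at 48.5 TPM in replicate 2 and 33.31 TPM in replicate 1. The second table, described below, gave Tomm6 92.4 TPM in replicate 2 and 92.3 TPM in replicate 1. It gave Tomm20 77.5 TPM in replicate 2 and 58.7 TPM in replicate 1. The channel gene Tomm40 had 18.56 TPM in replicate 2 and 16.23 TPM in replicate 1, and its paralog Tomm40l had 21.8 TPM in replicate 2 and 16.05 TPM in replicate 1, so the pair overlapped. The small subunits Tomm7 and Tomm5, the receptors Tomm22 and Tomm70a, and the cytosolic cochaperone Tomm34 had mean levels from 6.72 to 30.2 TPM. Tomm20l, the paralog of Tomm20, had 0 counts in both libraries, which allows up to 0.184 TPM in replicate 2 and 0.201 TPM in replicate 1 at a limit of 3 counts, for counting error only. Tomm20l overlaps Timm9 by 49 bp on the opposite strand of chromosome 12, and Timm9 had 12.01 TPM in replicate 2 and 11.24 TPM in replicate 1.

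The deposited tables split each gene into annotated transcripts, and for several of these genes much of the TPM fell on transcripts that are not annotated as protein-coding. In 9 genes such transcripts held at least 20% of the TPM in both libraries. The one with the highest TPM was Chchd10-202, a 405 nt retained-intron transcript, with 463.5 TPM in replicate 2 and 404.12 TPM in replicate 1. It held 62.4% of the gene's TPM but 37.5% of its expected counts in replicate 2, and 63.1% of the TPM but 38.3% of the counts in replicate 1. TPM divides by length, and 72.5% of the 100-base windows of this transcript also lie in the longest coding transcript of the gene. On coding transcripts alone Chchd10 had 279.7 TPM in replicate 2 and 235.86 TPM in replicate 1, still the highest of all 37 genes.

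Timm17a and Timm17b showed the same split. A 565 nt retained-intron transcript, Timm17a-204, held 50.2% of that gene's TPM in replicate 2 and 50.8% in replicate 1. Timm17b-203, of 761 nt, held 48.5% in replicate 2 and 47.4% in replicate 1, and Timm17a kept 87.2% of the coding TPM of the pair in replicate 2 and 83.4% in replicate 1. In Timm21 such transcripts held 91.1% of the TPM in replicate 2 and 84.8% in replicate 1. Among the paralog pairs, Timm10b and Timm10 changed order with the transcripts counted in both libraries, and Tomm40l and Tomm40 in replicate 2 only. Tomm40l held 54.0% of the pair in replicate 2 and 49.7% in replicate 1 over all transcripts, but 43.0% in replicate 2 and 40.3% in replicate 1 over coding ones. Timm10b held 50.2% of its pair with Timm10 in replicate 2 and 59.5% in replicate 1 over all transcripts, but 42.2% in replicate 2 and 49.4% in replicate 1 over coding ones.

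The second transcript table, made from the same reads, gave these genes higher TPM in all cases but Tomm7 among those detected. The ratio of the second to the first level ranged from 0.674 for Tomm7 to 2.47 for Timm23, with a median of 1.38 against 1.36 over all detected coding genes. Across the 35 detected genes the order of both tables was alike, with a Spearman rho of 0.957, a description across genes that share libraries and reads. Of the 29 genes with several transcripts and at least 10 TPM, 23 had the same leading transcript in both tables. The exceptions were Timm17a, Timm13, Tomm5, Timm10b, Tomm40l and Timm9. In 16 of the 29 genes at least 2 transcripts held 10% or more in both libraries and both tables.

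**Figure D2:**
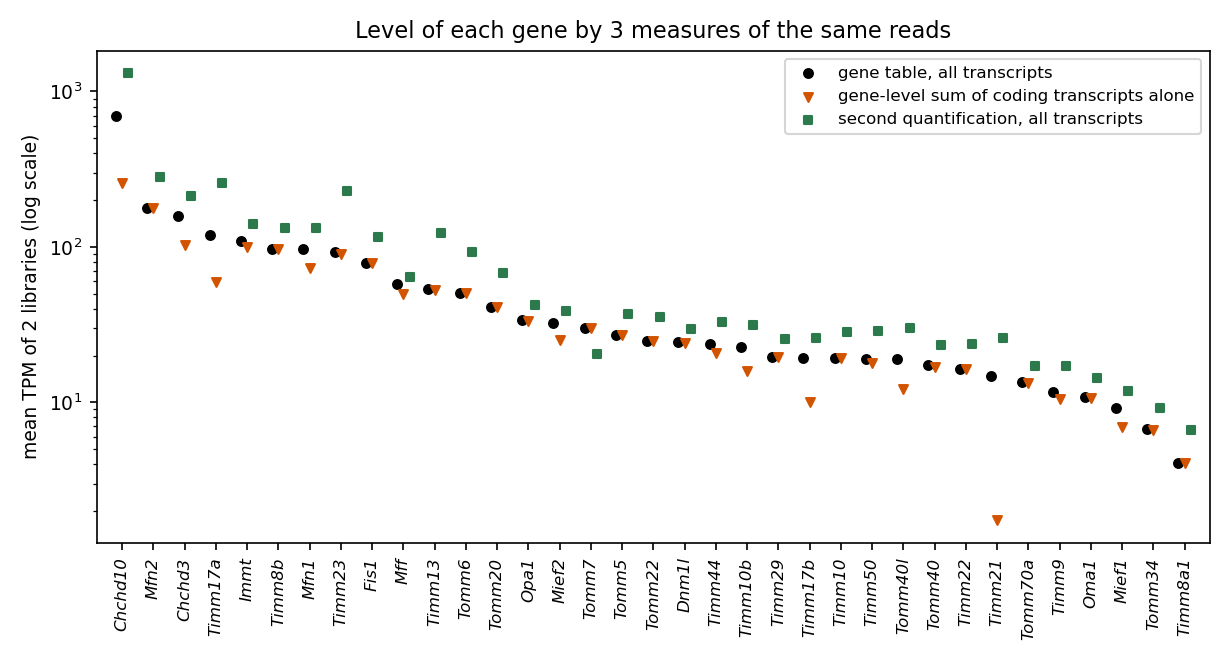
Mean TPM of 2 libraries for the 35 detected genes on a log axis by 3 measures of the same reads, ordered by the gene table. Timm21, Chchd10, Timm17a and Timm17b drop most when coding transcripts alone are summed, and Timm23 lies highest above its gene-table level in the second table, at a ratio of 2.47.

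Tomm20 shows how a short transcript can move a TPM. Tomm20-202, of 458 nt, held 83.1% of the gene's TPM but 26.8% of its expected counts in replicate 2, and 78.4% of the TPM but 21.3% of the counts in replicate 1. The effective length of the gene was accordingly 1112 nt in replicate 2 and 1319 nt in replicate 1. In TPM the log2 ratio of replicate 2 over replicate 1 was 0.54, and in scaled counts it was 0.25.

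Opa1, Dnm1l and Mff are known for alternative exons that change the proteins of fusion and fission. The use of an exon was taken as the share of TPM on transcripts that hold it, out of all transcripts that span it. Across these genes 8 wholly coding exons, each with a length that keeps the reading frame, were held by 5% to 95% of the spanning TPM in both libraries and both tables. Of these, 4 were held by 20% to 50% of the spanning TPM in both libraries and both tables. They are printed below with the exon in capitals (GENCODE M21 transcripts, 5′ to 3′ on the gene's strand). The 20 bases on each side, in lower case, are from the neighbouring exons in an annotated transcript that holds the exon.
Opa1, 54 nt, chr16:29588823-29588876, plus strand: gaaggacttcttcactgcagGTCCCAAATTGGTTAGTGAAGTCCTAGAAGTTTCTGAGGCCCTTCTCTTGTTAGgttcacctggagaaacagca
Opa1, 111 nt, chr16:29597586-29597696, plus strand: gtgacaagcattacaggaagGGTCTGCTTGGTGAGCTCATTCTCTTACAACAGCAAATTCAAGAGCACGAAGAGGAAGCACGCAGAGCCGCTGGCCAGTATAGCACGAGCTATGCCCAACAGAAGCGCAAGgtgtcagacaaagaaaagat
Dnm1l, 39 nt, chr16:16342697-16342735, minus strand: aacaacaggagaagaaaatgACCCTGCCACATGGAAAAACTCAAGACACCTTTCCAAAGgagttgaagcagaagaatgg
Mff, 75 nt, chr1:82737013-82737087, plus strand: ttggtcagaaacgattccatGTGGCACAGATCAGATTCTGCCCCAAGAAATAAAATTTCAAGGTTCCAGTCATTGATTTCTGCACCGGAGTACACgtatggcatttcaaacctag

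The 54 nt exon of Opa1 was held by 26.2% of the spanning TPM in replicate 2 and 21.4% in replicate 1, and the second table gave 27.6% in replicate 2 and 21.1% in replicate 1. The 111 nt exon was held by 39.3% in replicate 2 and 28.1% in replicate 1, and the second table gave 31.9% in replicate 2 and 23.8% in replicate 1. Most Opa1 transcripts thus lacked each of these exons. Both exons lie in Opa1-208, an 888 nt transcript that had 7.03 TPM in replicate 2 and 2.55 TPM in replicate 1. Without it, a choice made after seeing the data, the 54 nt exon was held by 8.47% in replicate 2 and 14.4% in replicate 1, so the order of the libraries turned, and the second table gave 20.2% in replicate 2 and 21.1% in replicate 1. The 111 nt exon was then held by 24.8% in replicate 2 and 21.7% in replicate 1, and the second table gave 24.9% in replicate 2 and 23.8% in replicate 1. The 39 nt exon of Dnm1l was held by 24.01% in replicate 2 and 34.6% in replicate 1, and the second table gave 22.8% in replicate 2 and 25.9% in replicate 1. The 2 later exons of Dnm1l, of 78 and 33 nt, differed in use. The 78 nt exon was held by 6.15% in replicate 2 and 8.58% in replicate 1, and the second table gave 7.49% in replicate 2 and 12.2% in replicate 1. The 33 nt exon was held by 14.6% in replicate 2 and 19.9% in replicate 1, and the second table gave 21.8% in replicate 2 and 29.8% in replicate 1. Dnm1l-201, which lacks all 3 exons, was the leading transcript at 55.9% of the gene's TPM in replicate 2 and 43.1% in replicate 1.

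In Mff the 75 nt exon was held by 41.4% of the spanning TPM in replicate 2 and 35.7% in replicate 1, and the second table gave 47.5% in replicate 2 and 42.0% in replicate 1. The bases printed after this exon are those of Mff-211, which lacks the 159 nt exon. In the first table all TPM on transcripts with the 75 nt exon, 19.49 in replicate 2 and 18.52 in replicate 1, lay on Mff-212. Mff-212 holds the 159 nt exon too. In the second table Mff-212 had 23.7 of 24.2 TPM in replicate 2 and all 23.6 TPM in replicate 1. Without transcripts under 1000 nt, a choice made after seeing the data, it was held by 57.7% in replicate 2 and 53.1% in replicate 1. The second table then gave 50.7% in replicate 2 and 44.3% in replicate 1. The 159 nt exon was held by most of the spanning TPM, 79.3% in replicate 2 and 91.5% in replicate 1. The second table gave 79.9% in replicate 2 and 82.9% in replicate 1, a smaller difference. A 33 nt exon, which lies in transcripts under 1000 nt only, was held by 10.9% in both libraries in the first table. For it the second table gave 10.7% in replicate 2 and 13.5% in replicate 1. Seen over all 8 exons, 7 had the same order of the libraries in both tables, which share their reads. With 1 value per library no test was made, and the files give no counts per junction.

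**Figure D3:**
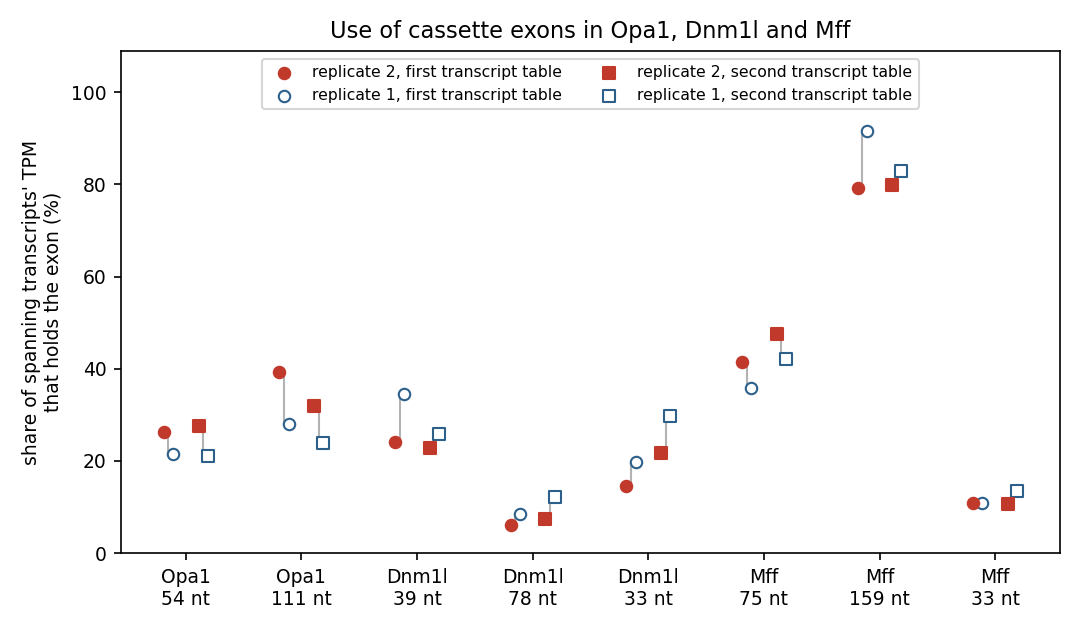
Share of the spanning transcripts' TPM that holds each of 8 cassette exons, in %, for replicate 2 (filled) and replicate 1 (open), with circles for the first and squares for the second transcript table. The Opa1 exons and the 75 nt Mff exon lie higher in replicate 2 in both tables, and the Dnm1l exons lie lower; without Opa1-208 the 54 nt Opa1 exon lies lower in replicate 2, at 8.47% in replicate 2 and 14.4% in replicate 1.

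The libraries were then compared gene by gene. A 2-sided exact binomial test set the rounded counts of replicate 2 against the sum of both, with TMM library sizes, over 14965 genes whose mean count was 10 or more. A gene was called where p after Benjamini-Hochberg adjustment was below 0.05 and the fold was 2 or more. It compares these libraries and covers counting error only. Of the 35 genes tested, 0 were called in either direction, against 6.18% of all genes tested (4.48% higher and 1.70% lower in replicate 2). At an unadjusted p below 0.05, 17 of the 35 passed, against 42.5% of all genes, and at an adjusted p below 0.05 without the fold threshold 12 passed, against 35.4% of all genes. Of these 12, 11 were higher in replicate 2 (18.9% of all genes) and 1 was lower (16.5%). DESeq2 size factors and the second table also gave 0 calls.

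The 3 genes with the highest ratio were all low or middle in level. Timm8a1 had 240.47 expected counts in replicate 2 and 117.54 in replicate 1, 1.79-fold after scaling (exact binomial test, adjusted p = 7.1e-07). Timm10 had 498 counts in replicate 2 and 262 in replicate 1, 1.68-fold (exact binomial test, adjusted p = 5.0e-11). Mief2 had 2677 counts in replicate 2 and 1634 in replicate 1, 1.45-fold (exact binomial test, adjusted p = 2.8e-31). Only Timm8a1 and Timm10 passed at a threshold of 1.5-fold, which 11.8% of all genes passed. Scaling by spike-in totals, which moved the median log2 ratio of all genes up by 0.22, put Timm8a1 past the 2-fold threshold. The 3 lowest ratios in TPM were those of Timm17b, Mief1 and Tomm7. Timm17b, with 577 counts in replicate 2 and 624 in replicate 1, was the 1 gene lower past the adjusted threshold, at 0.82-fold (exact binomial test, adjusted p = 0.0020). Mief1 had 1188.78 counts in replicate 2 and 1143.16 in replicate 1, and Tomm7 had 1047 in replicate 2 and 999 in replicate 1, and neither passed at an adjusted p below 0.05.

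Several of the most abundant genes differed by small amounts that passed the adjusted threshold, which covers counting error only. Scaling by spike-in totals moved the median log2 ratio of all genes up by 0.22, and that of the 35 genes from 0.06 to 0.28. This upward move adds to the ratios of genes higher in replicate 2. It is more than the log2 count ratios of Chchd10 (0.18), Chchd3 (0.11) and Mfn2 (0.10), but less than that of Mfn1 (0.31). Chchd10 was 1.13-fold higher in replicate 2 with 13081 counts in replicate 2 and 10196 in replicate 1, and Mfn2 1.07-fold higher with 25456 counts in replicate 2 and 20979 in replicate 1. Mfn1 was 1.24-fold higher in replicate 2, and Chchd3 1.08-fold. By role, the genes past the adjusted threshold were Tomm20 and Tomm40l in the TOM class, Timm17a and Timm17b in TIM23, Timm8a1 and Timm10 among the small TIMs, both mitofusins, the fission adaptor Mief2 and all 3 cristae genes, with only Timm17b lower. The median log2 ratio of the 35 was 0.13 in TPM against 0.05 over all genes tested, and 0.06 in TMM-scaled counts against 0.01. In TPM 28 of the 35 ratios lay above 0 (80.0%, against 57.8% of all genes), and in scaled counts 25 of 35 did (71.4%, against 51.3%).

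Set beside all genes tested, the differences of these genes were small, and their counts were high. The median size of the log2 count ratio was 0.10 over the 35 genes and 0.21 over all. Among genes whose mean count was 500 or more it was 0.11 over 28 of these genes and 0.14 over 5858 genes in all, of which 3.06% were called. No test was made of these differences.

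**Figure D4:**
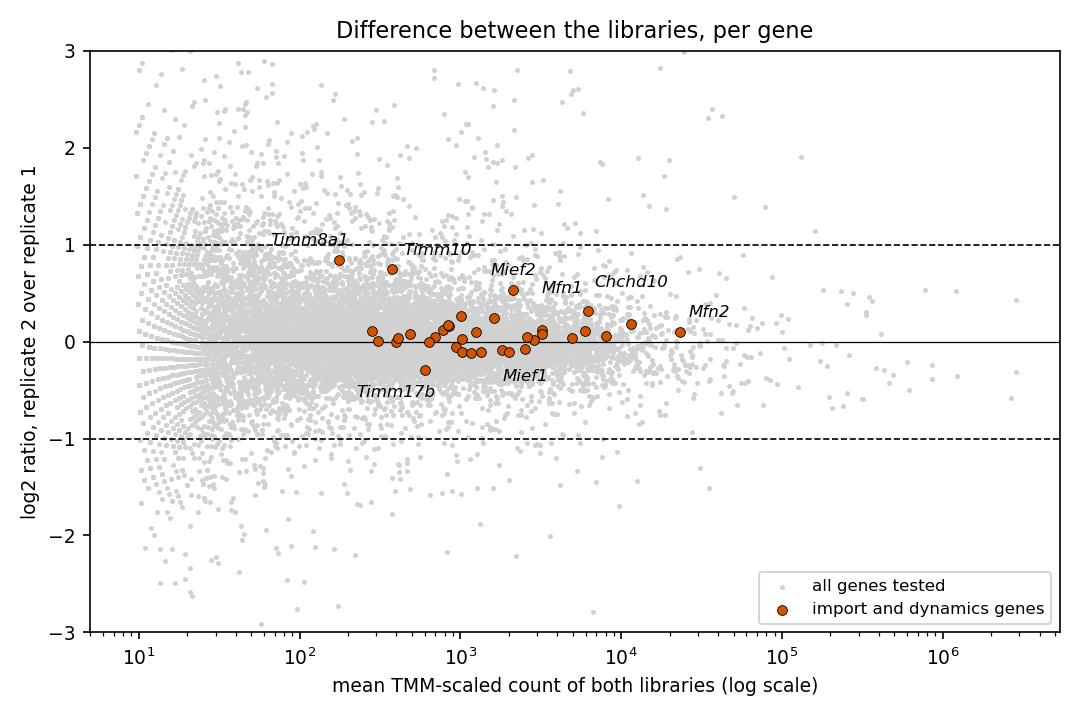
Log2 ratio of scaled counts, replicate 2 over replicate 1, against the mean scaled count on a log axis, for all genes tested (grey) and the 35 import and dynamics genes (orange). The dashed lines mark 2-fold, no orange point passes them, and 123 grey genes beyond 3 log2 units are not drawn.

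Other markers moved between the same libraries. All 7 slow-fibre markers were called higher in replicate 2, and their summed level was 2122 TPM in replicate 2 and 192 TPM in replicate 1. The 6 fast-fibre markers summed to 55999 TPM in replicate 2 and 71851 TPM in replicate 1. Of these, 1 (Myh1) was called higher and the other 5 were lower at an adjusted p below 0.05 but by less than 2-fold. Endothelial markers summed to 44.3 TPM in replicate 2 and 28.0 TPM in replicate 1 (2 of 4 called higher), and smooth muscle and pericyte markers to 126.8 TPM in replicate 2 and 92.0 TPM in replicate 1 (1 of 4). Schwann cell markers summed to 15.8 TPM in replicate 2 and 9.1 TPM in replicate 1 (2 of 3 called higher), and white adipocyte markers to 26.8 TPM in replicate 2 and 14.3 TPM in replicate 1 (2 of 3). Of fibroblast, macrophage, erythrocyte and satellite cell markers 0 were called, and 1 of the 2 satellite cell markers could be tested. Over all genes tested, 4.48% were called higher and 1.70% lower. At an adjusted p below 0.05 at any fold, 2 fibroblast markers were higher and 1 (Col1a1, 0.65-fold) was lower. By the same threshold 1 macrophage and 2 erythrocyte markers were higher. Of the brown adipocyte markers Dio2 was called higher, at 0.67 TPM in replicate 2 and 0.24 TPM in replicate 1, and Ucp1 was at 0 counts in both libraries. The part of these differences in the ratios of the import and dynamics genes was not tested, and in bulk muscle fewer cells of a type and less RNA per cell cannot be told apart.

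Among the partner genes of the same pathways 0 were called in 6 lists, against 6.18% of all genes tested. The counts of partners higher and lower in replicate 2 that follow are at an adjusted p below 0.05 at any fold, which 18.9% of all genes passed as higher and 16.5% as lower. Of 15 genes of the presequence motor and processing, 4 were higher and 2 lower in replicate 2, and the most abundant were the matrix chaperone Hspa9 at 152.34 TPM in replicate 2 and 110.07 TPM in replicate 1, the TIM23-associated Romo1 at 105.6 TPM in replicate 2 and 83.57 TPM in replicate 1, and the motor cochaperone Dnajc15 at 59.38 TPM in replicate 2 and 65.88 TPM in replicate 1. Of 11 genes of outer-membrane sorting and intermembrane-space import, 4 were higher and 0 lower, and Samm50, the channel that inserts barrel proteins, had 88.54 TPM in replicate 2 and 68.17 TPM in replicate 1. Next to it were the carrier-like proteins Mtch2, at 66.31 TPM in replicate 2 and 65.72 TPM in replicate 1, and Mtch1, at 37.29 TPM in replicate 2 and 28.44 TPM in replicate 1.

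Of 15 genes of cristae and OPA1 control, 6 were higher and 1 lower, against the same 18.9% and 16.5% of all genes. Chchd2, the close relative of Chchd10, led with 284.79 TPM in replicate 2 and 257.61 TPM in replicate 1. Minos1, a core MICOS subunit, had 144.17 TPM in replicate 2 and 127.42 TPM in replicate 1, and Apoo, another MICOS subunit, had 79.54 TPM in replicate 2 and 89.6 TPM in replicate 1. Among fission and fusion partners 13 of 15 could be tested, with 4 higher and 3 lower, and the most abundant were Mtfr1l, the ubiquitin ligase March5 and Fam210a, with mean levels from 35.5 to 63.1 TPM. Of 9 transport and mitophagy genes, 5 were higher and 1 lower, and the most abundant was the kinase Pink1 at 351.25 TPM in replicate 2 and 277.16 TPM in replicate 1. Bnip3, a mitophagy receptor, had 108.24 TPM in replicate 2 and 75.11 TPM in replicate 1, and the motor adaptor Trak1 had 80.54 TPM in replicate 2 and 66.88 TPM in replicate 1. Of 7 genes of cytosolic delivery, 2 were higher and 1 lower, and the chaperones Hspa8 and Hsp90ab1 and the ribosome-bound Naca had mean levels of 622, 507 and 164 TPM.

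**Figure D5:**
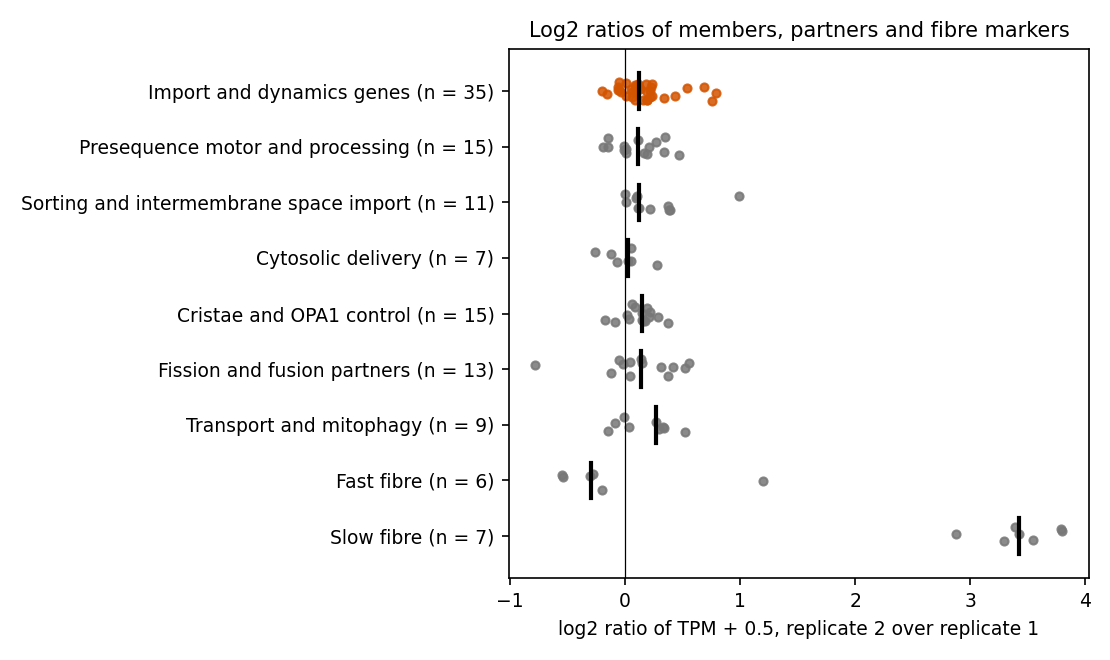
Log2 ratio of TPM + 0.5, replicate 2 over replicate 1, for each tested gene of the import and dynamics set (orange), 6 partner lists and 2 fibre-marker lists (grey), with a black bar at each list's median. The import and dynamics genes sit around 0.13, and the 7 slow-fibre markers around 3.42.

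Some of these genes share sequence with other loci, which bears on how the deposited counts were shared out. Of the 100-base windows of Timm23 transcripts, 46.7% also occur in Gm10273, which had 53.99 TPM in replicate 2 and 60.51 TPM in replicate 1, and the deposited posterior SD of the Timm23 count was 6.69% of the count in replicate 2 and 6.04% in replicate 1. The log2 count ratio of Timm23 was 0.08 in the gene table and -0.05 in the second. For Timm8a1, the gene with the highest ratio, 38.8% of the windows occur in the pseudogene Gm9797, and the posterior SD was 3.00% in replicate 2 and 4.72% in replicate 1. Tomm6 shares 62.1% of its windows with Gm21981, which overlaps it on the same strand and had 0.12 TPM in replicate 2 and 0.14 TPM in replicate 1. Tomm20 shares 3.71% of its windows with the pseudogene Gm14494, which had 30.43 TPM in replicate 2 and 27.24 TPM in replicate 1. The posterior SD of the Tomm20 count was 0.31% in replicate 2 and 0.38% in replicate 1. The snoRNA Gm26397 overlaps Tomm20 by 134 bp on the same strand, with 76.01 TPM in replicate 2 and 48.87 TPM in replicate 1. Chchd10 overlaps Mmp11 by 3367 bp on the opposite strand, and Mmp11 had 1.11 TPM in replicate 2 and 1.17 TPM in replicate 1. Whether the counting used strand is not given in the sources used here, so reads of overlapping opposite genes cannot be told apart.

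Promoters of 34 of the 37 genes were in the RefSeq table (GRCm38.p6; 250 bases before to 50 after the start), all but Timm21, Tomm40l and Tomm7. On either strand, 9 of the 34 genes (26.5%) held the ETS-family motif CCGGAAGT in a promoter window, against 4.31% of 27025 genes. The genes were Fis1, Mfn1, Mief1, Timm10, Timm10b, Timm23, Timm29, Timm8a2 and Tomm70a. The 27025 genes set beside them were not filtered by coding status or level. ETS-family factors such as GABP are known for sites in promoters of mitochondrial genes. Of the 9 genes with the motif, only Mfn1 and Timm10 were higher in replicate 2 at an adjusted p below 0.05. Timm23 (1.05-fold), Tomm70a (1.03-fold), Timm10b (1.00-fold), Fis1 (0.94-fold), Timm29 (0.93-fold) and Mief1 (0.92-fold) did not pass, and Timm8a2 was not tested. Whether the motif bears on these ratios was not tested. The promoters of Mfn1 and Timm10 are shown with this motif in capitals.
Mfn1, chr3:32529232-32529531, plus strand: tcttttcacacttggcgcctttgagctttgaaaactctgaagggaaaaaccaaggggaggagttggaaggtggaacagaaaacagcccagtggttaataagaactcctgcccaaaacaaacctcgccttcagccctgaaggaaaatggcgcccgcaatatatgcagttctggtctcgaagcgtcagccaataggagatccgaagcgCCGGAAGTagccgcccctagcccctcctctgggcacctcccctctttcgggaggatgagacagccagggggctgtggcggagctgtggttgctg
Timm10, chr2:84826771-84827070, plus strand: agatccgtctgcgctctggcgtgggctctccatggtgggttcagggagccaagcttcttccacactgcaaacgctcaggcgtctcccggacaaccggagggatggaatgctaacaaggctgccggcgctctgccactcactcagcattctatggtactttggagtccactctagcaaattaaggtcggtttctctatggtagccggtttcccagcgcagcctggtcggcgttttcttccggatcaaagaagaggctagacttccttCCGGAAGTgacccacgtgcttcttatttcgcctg

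In Mfn1 the motif starts 44 bases before the start of the gene, and in Timm10 it starts at base 17 after it. The NRF1 core, GCGC and TGCGC with any base between them, was in 5 of the 34 genes (14.7%, against 5.19% of all), namely Immt, Oma1, Opa1, Timm8b and Tomm20. The E-box CACGTG was in 7 genes (20.6%, against 8.09%), the YY1 motif AANATGGC in 5 (14.7%, against 6.96%), the ERR motif AAGGTCA in 3 (8.82%, against 5.38%) and the TATA motif TATAAA in 2 (5.88%, against 15.7%). The windows of these genes had a median GC content of 58.0%, against 52.7% over all windows, and no test was made. A match describes letters only, and no binding was measured.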

How the data were processed

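Total RNA sequencing of 2 libraries of 1 group was analysed, mapped to assembly mm10 with GENCODE M21 annotation per the labels. Which aligner and which counting programs made the tables is not given in the sources used here. In the gene table, the deposited expected counts (and estimated counts, in the second transcript table) divide ambiguous reads between the genes or transcripts they match, as the fractional values in the deposited columns show. The deposited TPM values are scaled by effective length, per the file headers, and the deposited FPKM values were not used. The deposited percent of isoform use gives, per the file headers, how much of a gene's TPM each transcript holds.

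From these, expected counts were rounded and scaled with TMM factors (edgeR 4.0.16, R 4.3.3). A 2-sided exact binomial test per gene (scipy 1.17.1) ran over 14965 genes whose mean count reached 10, with Benjamini-Hochberg adjustment over all of them. It compares 2 libraries and holds counting error only, and whether they come from separate animals is not known. The quasi-likelihood test of edgeR needs a contrast, and the series has 1 group. The test was checked on simulated counts that held counting error only, which is the error it assumes. That check therefore does not cover other variation between libraries. Fold changes use scaled counts + 0.5, and TPM ratios use TPM + 0.5. Coding status, exons and shared 100-base windows come from GENCODE M21 transcripts, promoters from RefSeq. The members and lists were chosen with earlier results of these data known. Values are given in full for the 10 most abundant genes, any called gene, the 3 highest and 3 lowest ratios, genes under 1 TPM and paralog pairs. Alternatives were DESeq2 1.42.0 size factors, spike-in and library totals, other count filters, a 1.5-fold threshold, other pseudocounts, the second table, coding transcripts alone and, for exons, no transcripts under 1000 nt. The 96 spike-ins and 26248 tRNA entries were left out of the gene test.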

Additional observations from a re-analysis of the deposited data

How the results depend on the processing

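The count of called import and dynamics genes was 0 with TMM scaling, DESeq2 size factors, library totals, no filter, a mean count of at least 100 and the second table, 1 with spike-in totals (Timm8a1) and 2 at 1.5-fold (Timm8a1 and Timm10). Over all genes it was 925, and 367 at a mean count of at least 100 and 1759 at 1.5-fold. The median log2 ratio was above 0 under every alternative run. It was lowest, at 0.03, in TPM of the second table. In spike-in-scaled counts the median was 0.28, where that of all genes was 0.23. The mean of the log2 TPM ratios, in place of the median, was 0.17. The mean summed TPM, 2245 as deposited, was 3716 in the second table, 5018 when rescaled to nuclear protein-coding genes and 1596 on coding transcripts alone, an alternative chosen after seeing the data; leaving out a replicate gave 2113 to 2377. The median share of the leading transcript was 64.7%, and 50.8% in the second table; leaving out a replicate gave 64.2% to 68.5%.

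Among log2 count ratios near 0, the sign turned in 9 genes with spike-in totals (Timm8b 0.12, Fis1 0.13, Mff 0.14, Timm13 0.17, Tomm7 0.11, Timm29 0.11, Timm21 0.21, Oma1 0.22 and Mief1 0.10), in 2 with library totals (Timm21 0.030 and Oma1 0.036) and in 6 in the second table (Timm8b 0.0025, Timm23 -0.047, Dnm1l -0.0079, Timm10b -0.011, Timm21 0.061 and Oma1 0.0090). The cause was not tested, other than that spike-in scaling moves every ratio up by 0.22. Without transcripts under 1000 nt, chosen after seeing the data, the difference of replicate 2 minus replicate 1 in use of the 54 nt Opa1 exon was -5.95 percentage points in place of 4.75, and it rested on Opa1-208, the 1 transcript left out there. Leaving out a replicate leaves no ratio to compute. No paired analysis was possible because the series has 1 group. Counts limit Timm8a2 and Tomm20l, whose levels could not be told from 0.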
